A study of Rattus norvegicus with 6 samples.

Results

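The glutathione S-transferases (GST), UDP-glucuronosyltransferases (UGT) and cytosolic sulfotransferases (SULT) of rat liver were taken from a deposited table of gene expression as all rows whose symbol begins with Gst and one of the letters a, k, m, o, p, t or z, with Ugt and 1, 2 or 3, or with Sult and a digit from 1 to 6. That gave 39 of 25926 rows, of which 21 were GST, 6 UGT and 12 SULT, each with its own symbol. Liver RNA came from 3 TPN rats, which were fed by vein alone for 7 days (total parenteral nutrition, TPN) and carried the disease label PNALD (parenteral nutrition-associated liver disease), and from 3 control rats, which received 0.9% saline and carried the label normal. Both groups were of the Sprague-Dawley strain, at an age given as 4 weeks. No mutant allele or transgene is named for either group, and the labels do not say whether the controls ate or carried a venous line. The values are FPKM, fragments divided by transcript length and by sequencing depth. This puts genes and rats on a common scale, but it does not correct for very abundant genes that take up differing shares of the libraries.

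These enzymes carry out the conjugation step of drug and steroid metabolism, in which a reactive or fat-soluble compound is joined to a large polar group and can then leave the cell in bile or blood. GSTs add glutathione to electrophiles such as lipid peroxidation products, UGTs add glucuronic acid to bilirubin, bile acids, steroids and phenols, and SULTs add a sulfate group to steroids, bile acids, thyroid hormones and phenols. In liver they are made mainly by hepatocytes, and many are controlled by xenobiotic receptors (the aryl hydrocarbon receptor, PXR and CAR), by the stress factor NRF2 and by hepatocyte factors such as C/EBP.

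Of the 39 rows, 29 averaged 1 FPKM or more across the rats and were tested, 17 of them GST, 5 UGT and 7 SULT. The other 10 did not exceed 0.727 FPKM in any rat. They were Gstm6, Gstm6l, Gsto2, Gstt4, Ugt3a2, Sult1d1, Sult2b1, Sult4a1, Sult5a1 and Sult6b1, and Gstt4 and Ugt3a2 were listed at 0 in all 6 rats. Hepatocyte markers were abundant in every library, with Alb, the albumin gene, at 12828, 39337 and 30697 FPKM in TPN rats 1, 2 and 3, against 47966, 32506 and 48388 FPKM in control rats 1, 2 and 3. The whole table gave 11362 tested rows, of which 28 passed limma at a Benjamini-Hochberg adjusted p under 0.05, which is 0.246%, with 25 lower in TPN (0.22%) and 3 higher (0.0264%). Fold changes are TPN over control on the scale of log2(FPKM + 1), which understates the change of low genes. The libraries stood apart within the groups in their acute-phase genes, a program that hepatocytes raise in inflammation. The mean log2(FPKM + 1) of 13 such genes was 11.5, 9.62 and 9.65 in TPN rats 1, 2 and 3, against 8.11, 10.3 and 8.44 in control rats 1, 2 and 3, so TPN rat 1 was the highest and control rat 2 lay above TPN rats 2 and 3. Hamp, 1 of these genes, measured 2.01 FPKM in TPN rat 2 and 333 to 711 FPKM in the other rats. This low value pulled down the score of TPN rat 2.

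None of the 29 tested conjugation rows passed limma's adjusted threshold, and the smallest adjusted p among them was 0.0882. With sample weights 2 passed (2.63% of all rows), and 1 passed without TPN rat 1 and control rat 2 (1.07% of all rows), while none passed with the replicate number as a block (0.51% of all rows). Leaving out TPN rat 1 with control rat 2 was chosen after the data were seen. The values of the 29 rows lay mostly on the low side in TPN liver. Negative log2 fold changes were found in 28 of 29 rows, against 49.1% of all tested rows, and the median was -0.68, against 0.0065 over all tested rows. The negative count was 32 of 37, with a median of -0.51, without the filter on low values. It was 22 of 29, with a median of -0.25, without TPN rat 1, and 24 of 29, with a median of -0.45, without TPN rat 1 and control rat 2. It was 16 of 29, with a median of -0.015, when the acute-phase score was a term of the model. Every TPN rat had a higher score than control rats 1 and 3. The term therefore overlaps with the group and can take up part of its difference. At an unadjusted limma p under 0.05 there were 6 lower rows and 1 higher row, where the shares over all tested rows were 7.01% lower and 4.44% higher. These counts were 4 and 1 without TPN rat 1 (5.97% and 7.09% of all rows), 13 and 0 without TPN rat 3 (8.76% and 3.44%), and 12 and 1 without TPN rat 1 and control rat 2 (8.33% and 6.96%). In 5 rows TPN and control values were fully separate. Gstt1, Gstt2, Gsta6 and Sult2a2 were lower in every TPN rat than in any control rat, and Sult1e1 was higher in every TPN rat. Over all tested rows the groups did not overlap in 9.09% in the lower and 8.02% in the higher direction.

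**Figure D1:**
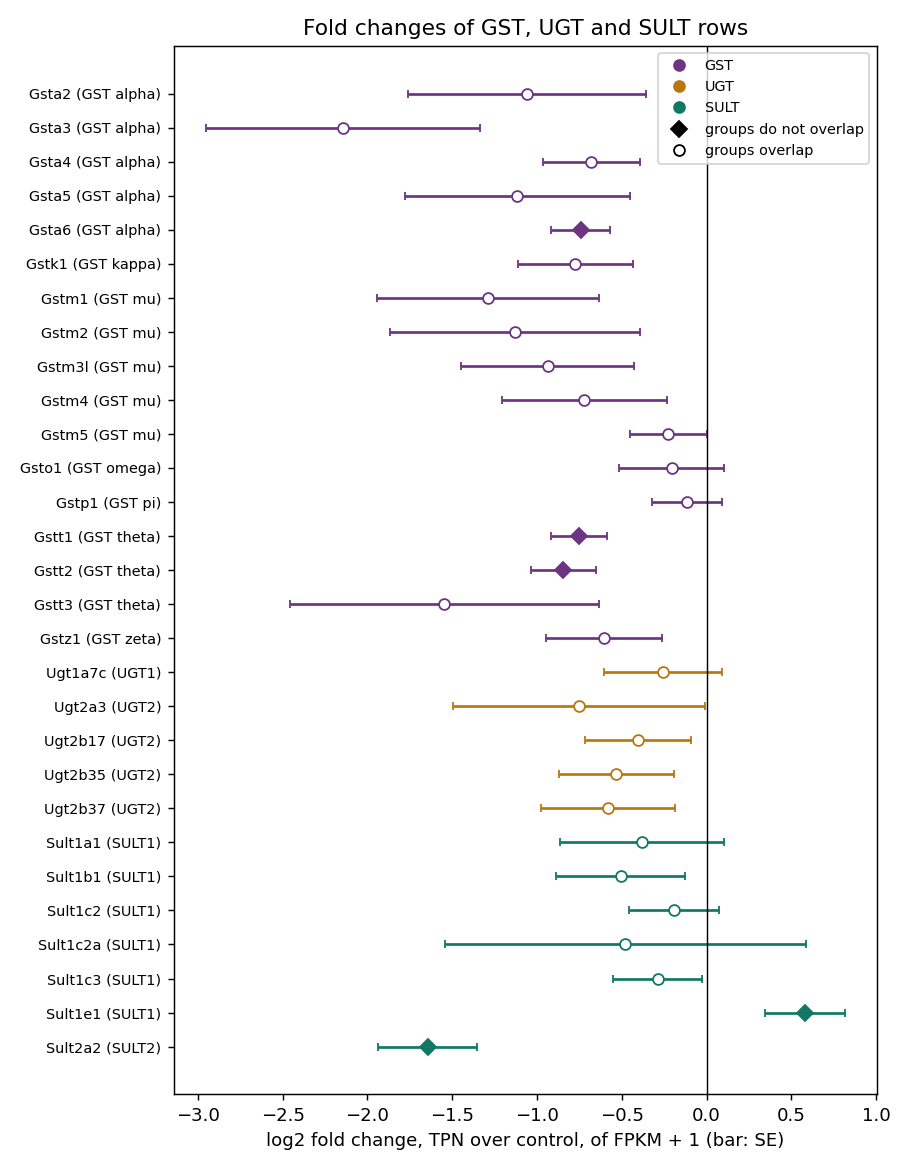
Fold changes of the 29 tested rows, with the log2 fold change of TPN over control (FPKM + 1) on the horizontal axis, bars for its SE and colours for GST, UGT and SULT. Of these rows 28 lie left of 0, and the filled diamonds mark the 5 rows whose groups do not overlap.

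The summed level of the GST rows was 623, 1809.5 and 2752 FPKM in TPN rats 1, 2 and 3, against 3669, 1874 and 3833 FPKM in control rats 1, 2 and 3. TPN rat 1 was the lowest, and control rat 2 lay beside TPN rat 2 and under TPN rat 3, so the groups overlapped. The mean was 1728 ± 1067 FPKM in TPN and 3125 ± 1087 FPKM in control (SD, n = 3 each), a ratio of 0.553, and the ratio ran from 0.389 without TPN rat 3 to 0.730 without TPN rat 1. The UGT rows summed to 593, 1168 and 1482 FPKM in TPN rats 1, 2 and 3, against 1534, 1261 and 1523 FPKM in control rats 1, 2 and 3, which again overlapped. The SULT rows summed to 1236, 1619 and 1979.6 FPKM in TPN rats 1, 2 and 3, against 3658, 2409 and 2876 FPKM in control rats 1, 2 and 3, and here every TPN rat was under every control rat. All conjugation rows together made up 0.481%, 0.887% and 1.17% of the FPKM of TPN rats 1, 2 and 3, against 1.63%, 1.06% and 1.6% in control rats 1, 2 and 3.

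**Figure D2:**
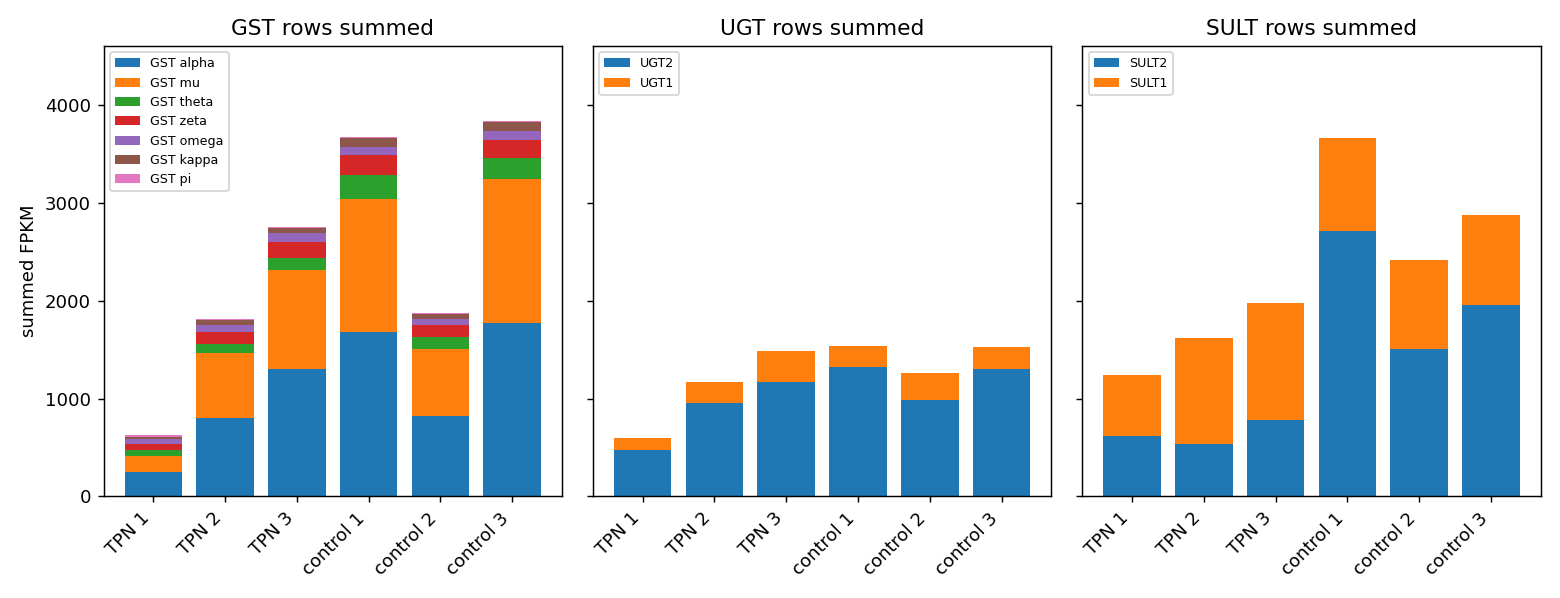
Summed FPKM of GST, UGT and SULT rows in each rat, stacked by family (the SULT4, SULT5 and SULT6 rows, all under 0.21 FPKM, and the UGT3 row at 0 are not drawn). GST bars of TPN rat 2 and control rat 2 are of similar height (1809.5 and 1874 FPKM), while the SULT2 part is under 782 FPKM in each TPN rat and above 1510.5 FPKM in each control rat.

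Promoter sequence is shown for Sult2a2 and Sult1e1, whose groups did not overlap in opposite directions, for Ugt2b37, the most abundant UGT row, for Gstm1, one of the abundant GST rows that were lowest in TPN rat 1, and for Gstp1, the GST row nearest to no difference. Each is the 250 bases before the start of the gene in RefSeq's table for GRCr8, a later build than the Rnor_6.0 of the deposited values. Symbols of 30 of the 39 rows matched 1 promoter, and 4 of these were set aside because the symbol is also an older name of another gene, which left 26. Capitals mark matches, on either strand, to the core of the antioxidant response element (TGACNNNGC), the core of nuclear receptor sites (AGGTCA) or a C/EBP motif (TTGCNNAA). TGACCT, which is AGGTCA read on the other strand, can share its leading letters with TGACNNNGC, but no such overlap occurred in the sequences shown.
Sult2a2, chr1:85104533-85104782, reverse strand: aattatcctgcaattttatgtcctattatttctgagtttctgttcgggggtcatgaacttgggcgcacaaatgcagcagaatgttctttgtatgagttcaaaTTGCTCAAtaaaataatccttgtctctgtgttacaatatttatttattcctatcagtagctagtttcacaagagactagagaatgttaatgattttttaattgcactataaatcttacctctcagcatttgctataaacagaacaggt
Sult1e1, chr14:20701230-20701479, forward strand: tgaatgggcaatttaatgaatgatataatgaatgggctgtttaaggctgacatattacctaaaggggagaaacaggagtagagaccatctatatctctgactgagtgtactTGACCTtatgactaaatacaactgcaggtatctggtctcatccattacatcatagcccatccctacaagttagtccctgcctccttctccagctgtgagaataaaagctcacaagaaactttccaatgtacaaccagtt
Ugt2b37, chr14:21171886-21172135, forward strand: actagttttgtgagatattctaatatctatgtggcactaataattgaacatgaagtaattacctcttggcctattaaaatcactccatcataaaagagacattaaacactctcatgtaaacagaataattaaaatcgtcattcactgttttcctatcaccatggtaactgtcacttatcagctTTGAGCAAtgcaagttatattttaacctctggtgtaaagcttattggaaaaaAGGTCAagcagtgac
Gstm1, chr2:198343384-198343633, reverse strand: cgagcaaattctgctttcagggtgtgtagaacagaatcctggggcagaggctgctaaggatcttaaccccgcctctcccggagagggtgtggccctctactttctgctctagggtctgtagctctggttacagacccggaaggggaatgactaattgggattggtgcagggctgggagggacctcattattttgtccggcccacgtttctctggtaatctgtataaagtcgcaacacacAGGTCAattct
Gstp1, chr1:210769706-210769955, reverse strand: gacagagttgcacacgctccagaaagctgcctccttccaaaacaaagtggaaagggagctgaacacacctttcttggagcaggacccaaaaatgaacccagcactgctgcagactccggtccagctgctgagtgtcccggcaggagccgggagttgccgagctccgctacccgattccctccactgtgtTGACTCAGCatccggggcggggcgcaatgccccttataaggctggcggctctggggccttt

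Sult2a2 held TTGCTCAA at 148 to 141 bases before the start. Ugt2b37 held TTGAGCAA, the same letters read on the other strand, at 67 to 60 bases before its start, and AGGTCA at 15 to 10 bases. Sult1e1 held TGACCT at 139 to 134 bases and Gstm1 AGGTCA at 11 to 6 bases. Gstp1 held TGACTCAGC, a match to the antioxidant core, at 61 to 53 bases. Across the 26 members the antioxidant core occurred in 11.5%, against 10.1% of 33465 promoters of this length, AGGTCA in 19.2% against 14.1% and TTGCNNAA in 19.2% against 9.22%. These are matches of letters only.

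Most of the GST level came from the alpha and mu classes, the dimeric cytosolic enzymes that make up the bulk of hepatocyte GST. Gsta5, an alpha-class enzyme and the most abundant GST row, measured 137, 489 and 789 FPKM in TPN rats 1, 2 and 3, against 1034, 487 and 1077 FPKM in control rats 1, 2 and 3. Gsta2, another alpha-class enzyme, measured 58.2, 218 and 371 FPKM in TPN rats 1, 2 and 3, against 442, 202 and 484 FPKM in control rats 1, 2 and 3. The FPKM of Gsta5 divided by that of Gsta2 stayed between 2.13 and 2.41 in all 6 rats, so both rows followed the same order of rats. In each, TPN rat 1 was lowest and control rat 2 was close to TPN rat 2. Gsta5 averaged 472 ± 326 FPKM in TPN and 866 ± 329 FPKM in control (SD, n = 3 each), with a log2 fold change of -1.12 ± 0.66 (SE) and adjusted p = 0.58 in limma. Gsta2 had a log2 fold change of -1.06 ± 0.70 (SE) and adjusted p = 0.625 in limma. Without TPN rat 1 the log2 fold change was -0.39 in Gsta5 and -0.30 in Gsta2, without TPN rat 3 it was -1.65 in Gsta5 and -1.63 in Gsta2, and with the acute-phase score as a term it was -0.012 in Gsta5 and 0.099 in Gsta2. Symbols in the alpha class have been reassigned between annotations and the genes are alike in sequence, so the split of FPKM among the Gsta rows is uncertain.

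Other alpha-class rows differed in how far the groups lay apart. Gsta3 had the most negative fold change of the 29 rows. It measured 3.37, 6.46 and 34.4 FPKM in TPN rats 1, 2 and 3, against 66.0, 24.6 and 57.1 FPKM in control rats 1, 2 and 3, where TPN rats 1 and 2 were under every control and TPN rat 3 lay among them (log2 fold change -2.14 ± 0.81 SE; adjusted p = 0.399, limma). Gsta4, whose enzyme prefers 4-hydroxynonenal and related products of lipid peroxidation, measured 52.6, 79.5 and 109.7 FPKM in TPN rats 1, 2 and 3, against 126, 104 and 145 FPKM in control rats 1, 2 and 3 (log2 fold change -0.68 ± 0.29 SE; adjusted p = 0.424, limma). Only TPN rat 3 exceeded the lowest control, control rat 2, and without TPN rat 1 the log2 fold change was -0.41. Gsta6, a low alpha-class row, measured 2.72, 2.99 and 2.47 FPKM in TPN rats 1, 2 and 3, against 6.69, 4.31 and 4.91 FPKM in control rats 1, 2 and 3. Here the TPN rats were close together and all under the controls, with means of 2.73 ± 0.26 FPKM in TPN and 5.3 ± 1.23 FPKM in control (SD, n = 3 each). Gsta6 had a log2 fold change of -0.74 ± 0.18 (SE) and adjusted p = 0.188 in limma.

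In the mu class, which conjugates epoxides and quinones, Gstm1 measured 93.1, 358 and 546 FPKM in TPN rats 1, 2 and 3, against 788, 415 and 822 FPKM in control rats 1, 2 and 3. Gstm2 measured 64.2, 288 and 433 FPKM in TPN rats 1, 2 and 3, against 542, 254 and 620.2 FPKM in control rats 1, 2 and 3. As in Gsta5, TPN rat 1 was lowest in both rows, control rat 2 was the lowest control and TPN rat 3 was above it. Gstm1 averaged 332 ± 227 FPKM in TPN and 675 ± 226 FPKM in control (SD, n = 3 each), with a log2 fold change of -1.29 ± 0.66 (SE) and adjusted p = 0.513 in limma, and Gstm2 had a log2 fold change of -1.13 ± 0.74 (SE) and adjusted p = 0.621 in limma. Without TPN rat 1 the log2 fold change was -0.54 in Gstm1 and -0.32 in Gstm2, and with the acute-phase score as a term it was -0.22 in Gstm1 and 0.082 in Gstm2. The less abundant Gstm4 had adjusted p = 0.629 in limma, with 5.49 to 20.2 FPKM in TPN liver and 12.9 to 26.2 FPKM in control liver. Gstm3l and Gstm5 had means of 0.694 and 0.944 FPKM in TPN liver, and 2.30 and 1.33 FPKM in control liver, and limma gave adjusted p of 0.542 and 0.762. Gstm3l was listed at 0 in TPN rat 1. Gstm2 and Gstm1 lie next to each other in the RefSeq annotation of GRCr8.

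The theta class, which acts on haloalkanes and peroxides, held the GST rows with the smallest p. Gstt1 measured 21.7, 18.5 and 21.1 FPKM in TPN rats 1, 2 and 3, against 35.1, 39.2 and 31.3 FPKM in control rats 1, 2 and 3, so the groups did not overlap and the spread within each was narrow. It averaged 20.4 ± 1.68 FPKM in TPN and 35.2 ± 3.92 FPKM in control (SD, n = 3 each), with a log2 fold change of -0.75 ± 0.16 (SE) and adjusted p = 0.161 in limma. Gstt2 measured 23.3, 23.8 and 24.0 FPKM in TPN rats 1, 2 and 3, against 55.8, 38.0 and 38.2 FPKM in control rats 1, 2 and 3, again without overlap and with the TPN rats within 1 FPKM of each other. It averaged 23.7 ± 0.373 FPKM in TPN and 44.0 ± 10.2 FPKM in control (SD, n = 3 each), with a log2 fold change of -0.84 ± 0.19 (SE) and adjusted p = 0.174 in limma. Neither row passed the adjusted threshold, although Gstt1 did so with sample weights (adjusted p = 0.033 in limma, in a range from 0.033 to 0.594 over its alternatives). Gstt3 instead was lowest in TPN rat 1 and had control rat 2 under TPN rats 2 and 3, at 8.29, 50.9 and 83.6 FPKM in TPN rats 1, 2 and 3, against 159.6, 43.6 and 141 FPKM in control rats 1, 2 and 3 (log2 fold change -1.55 ± 0.91 SE; adjusted p = 0.583, limma). The FPKM of Gstt1 divided by that of Gstt3 was 2.61, 0.364 and 0.253 in TPN rats 1, 2 and 3, against 0.22, 0.897 and 0.223 in control rats 1, 2 and 3, so it was highest in TPN rat 1 and next in control rat 2. Gstt1 and Gstt3 are neighbours in RefSeq's GRCr8. That contrast was picked with the values in view.

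The remaining GST classes have a single tested row each. Gstz1, the maleylacetoacetate isomerase of tyrosine breakdown, measured 66.7, 126 and 157 FPKM in TPN rats 1, 2 and 3, against 199, 126 and 188 FPKM in control rats 1, 2 and 3 (log2 fold change -0.61 ± 0.34 SE; adjusted p = 0.551, limma). Gstk1, the kappa-class enzyme of mitochondria and peroxisomes, measured 26.9, 50.1 and 56.7 FPKM in TPN rats 1, 2 and 3, against 86.3, 49.8 and 91.8 FPKM in control rats 1, 2 and 3 (log2 fold change -0.77 ± 0.34 SE; adjusted p = 0.443, limma). In both rows control rat 2 lay within 1 FPKM of TPN rat 2, and without TPN rat 1 the log2 fold change was -0.25 in Gstz1 and -0.45 in Gstk1. Gsto1, an omega-class enzyme that reduces dehydroascorbate, averaged 68.0 ± 23.2 FPKM in TPN and 77.3 ± 20.1 FPKM in control (SD, n = 3 each), with adjusted p = 0.857 in limma. Gstp1, the pi-class enzyme, is known in rat liver as a marker of preneoplastic hepatocyte foci and is otherwise typical of bile duct cells. It measured 12.1, 10.4 and 9.44 FPKM in TPN rats 1, 2 and 3, against 11.4, 15.0 and 9.01 FPKM in control rats 1, 2 and 3, which overlapped. Gstp1 had a log2 fold change of -0.12 ± 0.20 (SE) and adjusted p = 0.884 in limma, the GST fold change nearest to 0.

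**Figure D3:**
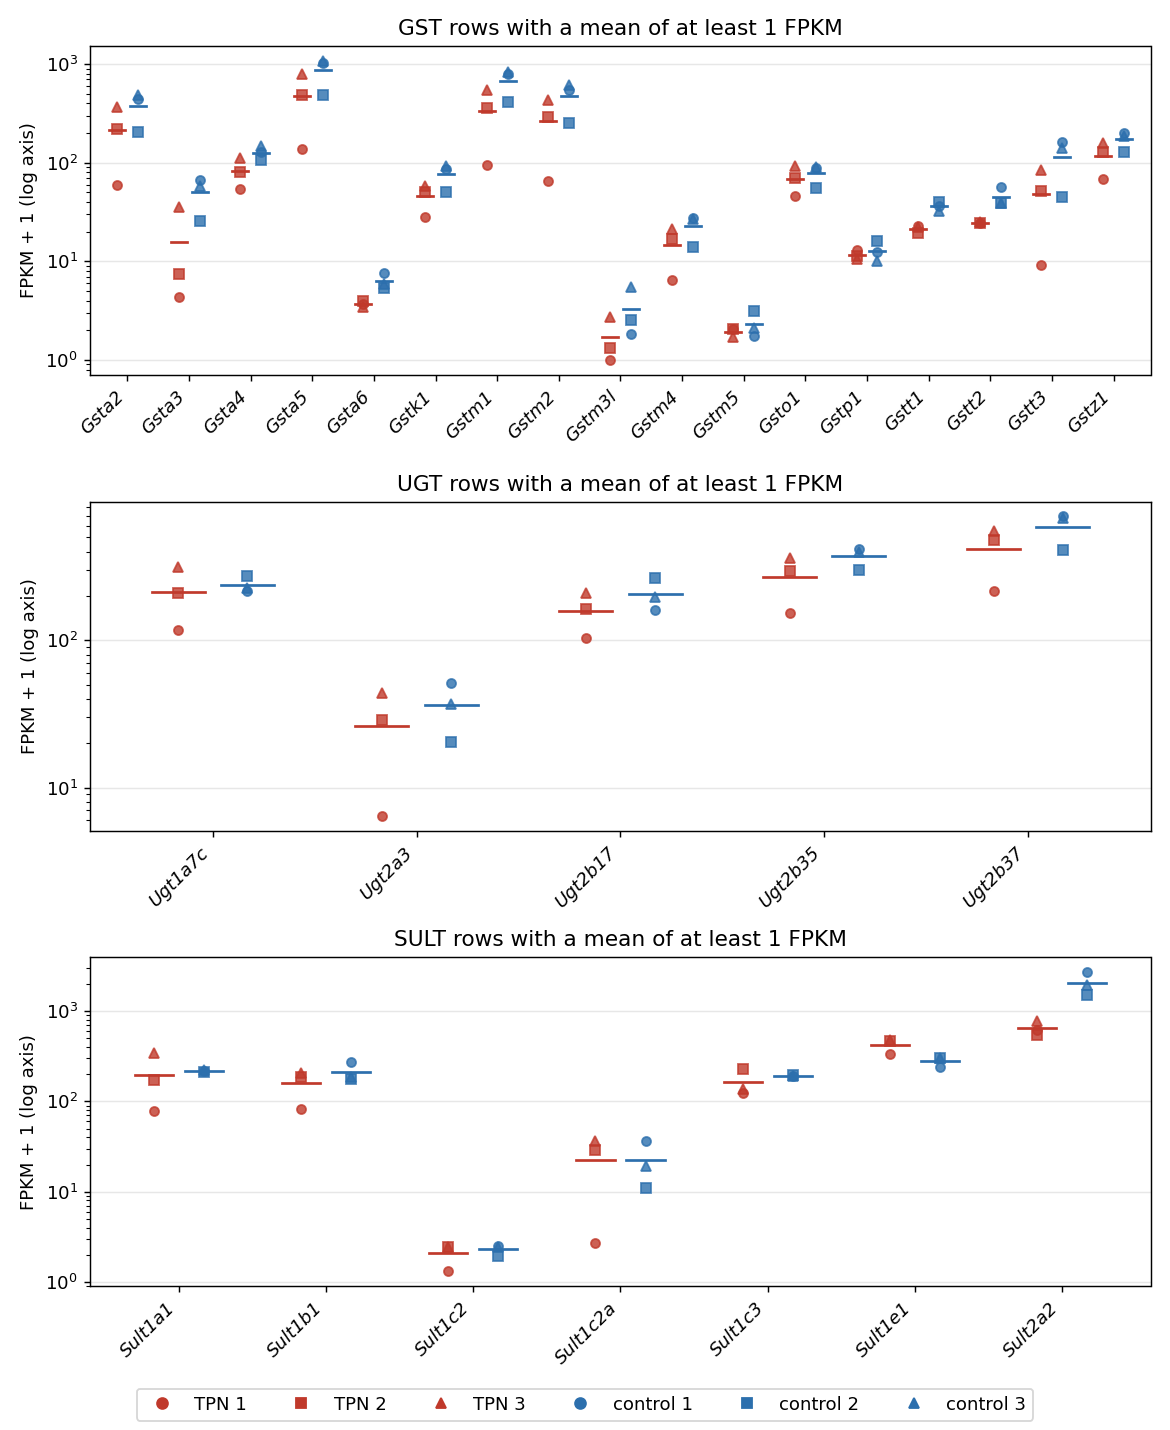
FPKM + 1 on a log axis for the 29 tested rows, with 1 point per rat (TPN left, control right; circle, square and triangle for rats 1, 2 and 3) and a line at the mean of each group. In the abundant rows Gsta2, Gsta5, Gstm1 and Gstm2 the circle of TPN rat 1 is lowest and the squares of both groups lie close together, while Gstt1, Gstt2 and Sult2a2 show no overlap.

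Of the 17 tested GST rows none passed limma's adjusted threshold, 5 had an unadjusted p under 0.05 (all lower, against 7.01% of all rows), 3 showed no overlap (all lower, against 9.09% of all rows) and the median log2 fold change was -0.77. TPN rat 1 held the lowest of the 6 values in 13 rows, and control rat 2 held the lowest control value in 13 rows. TPN rat 1 was under every control in 15 rows, TPN rat 2 in 8 rows and TPN rat 3 in 4 rows. Without TPN rat 1 the median was -0.41, and with the acute-phase score, which overlaps with the group, as a term it was -0.22. The summed acute-phase FPKM of the 13 genes ran from 38562 to 103360.0 in TPN liver and from 20157 to 54256 in control liver, with the highest in TPN rat 1 and the highest control in control rat 2, and 11 of the 13 had positive fold changes. The model with the acute-phase score as a term was added after the data were seen and cannot fully separate the score from the group. The part of the acute-phase genes in the GST values was therefore not tested. Markers of hepatocytes near the central vein, where several GSTs are known to be concentrated, had negative fold changes in 9 of 9 tested genes, summing to 623 to 2249 FPKM in TPN liver and 1719.8 to 2982 FPKM in control liver. Markers of the periportal zone were negative in 9 of 10 genes, with sums of 2336 to 5276 FPKM in TPN liver and 3392.5 to 4502 FPKM in control liver, and no marker of either zone was listed at 0. What these zones contribute was not tested, and in bulk liver fewer cells of a type cannot be told apart from less RNA per cell.

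**Figure D4:**
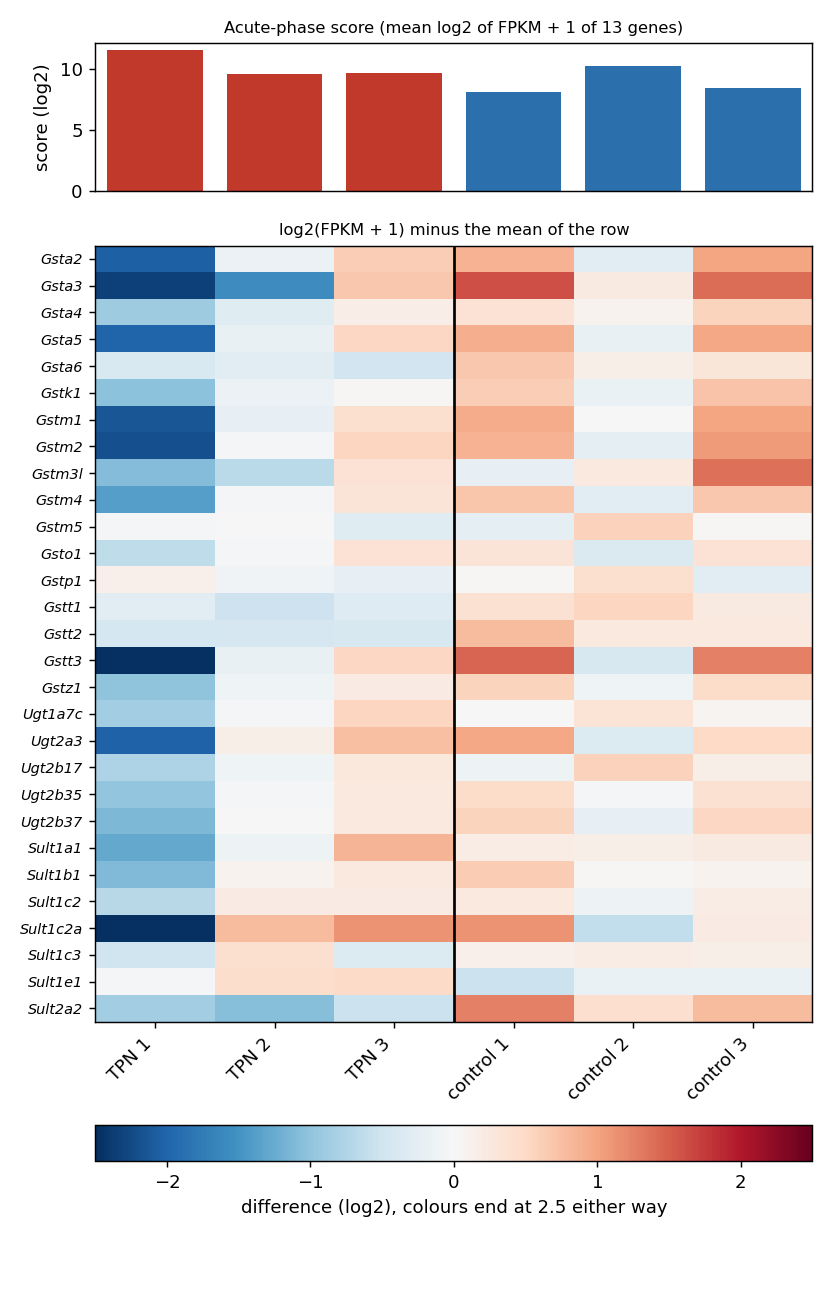
Lower panel: log2(FPKM + 1) of each tested row minus the mean of that row over the 6 rats, by rat, with TPN left of the line. Upper panel: the acute-phase score of each rat (log2), which is highest in TPN rat 1 (11.5), the rat with the lowest value in 23 of 29 rows, and highest among controls in control rat 2 (10.3).

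The table held 1 row of the UGT1 locus, Ugt1a7c. This locus makes several enzymes, the bilirubin-conjugating UGT1A1 among them, by joining alternative leading exons to shared later exons, so reads from the shared exons cannot be assigned to 1 enzyme and the row is uncertain as a measure of Ugt1a7c alone. It measured 117, 209 and 314 FPKM in TPN rats 1, 2 and 3, against 214, 272 and 225 FPKM in control rats 1, 2 and 3. The control rats lay inside the range of the TPN rats (log2 fold change -0.25 ± 0.35 SE; adjusted p = 0.839, limma), and the fold change was 0.12 without TPN rat 1.

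The UGT2 rows conjugate steroids, bile acids and fatty acids. Ugt2b37, the most abundant, measured 215, 476 and 554 FPKM in TPN rats 1, 2 and 3, against 692, 409 and 672 FPKM in control rats 1, 2 and 3 (log2 fold change -0.58 ± 0.40 SE; adjusted p = 0.628, limma). Ugt2b35 measured 153, 292 and 361 FPKM in TPN rats 1, 2 and 3, against 418, 298 and 395 FPKM in control rats 1, 2 and 3 (log2 fold change -0.53 ± 0.34 SE; adjusted p = 0.603, limma). In both, TPN rat 1 was under every control, while TPN rat 3 was above control rat 2. Ugt2b17 measured 103, 163 and 209.9 FPKM in TPN rats 1, 2 and 3, against 159, 262 and 195 FPKM in control rats 1, 2 and 3 (log2 fold change -0.40 ± 0.31 SE; adjusted p = 0.676, limma). Its highest value was in control rat 2, unlike the other UGT2 rows. Ugt2a3 measured 5.46, 27.7 and 42.9 FPKM in TPN rats 1, 2 and 3, against 50.2, 19.5 and 35.9 FPKM in control rats 1, 2 and 3, with the largest SE on the log2 scale among the UGT rows (log2 fold change -0.75 ± 0.74 SE; adjusted p = 0.762, limma). Over the 5 tested UGT rows none passed, none had an unadjusted p under 0.05, all overlapped, and the median log2 fold change was -0.53, or -0.12 without TPN rat 1. TPN rat 1 was the lowest of 6 in all 5, and without it the log2 fold change was -0.16 in Ugt2b37, -0.17 in Ugt2b35, -0.12 in Ugt2b17 and 0.068 in Ugt2a3. Ugt2b genes form a cluster of near-identical copies that can share reads, so their split is uncertain as well.

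Among the SULT rows the largest difference was in Sult2a2, a hydroxysteroid sulfotransferase of the family that sulfates bile acids and dehydroepiandrosterone. It was the most abundant conjugation row in control liver. Sult2a2 measured 621, 537 and 781 FPKM in TPN rats 1, 2 and 3, against 2706, 1510.5 and 1952 FPKM in control rats 1, 2 and 3, and every TPN rat was under every control rat. The mean was 646 ± 124 FPKM in TPN and 2056 ± 604 FPKM in control (SD, n = 3 each), 3.18-fold lower in TPN, with a log2 fold change of -1.65 ± 0.29 (SE) and adjusted p = 0.0882 in limma. Its adjusted p ran from 0.0171 to 0.298 over the alternatives, passing with sample weights (0.0171) and without TPN rat 1 and control rat 2 (0.0415), and the fold change stayed between -1.90 and -1.40. That pair of rats was chosen after the data were seen. Unlike the abundant GST rows, Sult2a2 was lowest in TPN rat 2, not in TPN rat 1. Sult2a genes have near-identical copies, and 1 Sult2a row was measured here, so it may hold reads of several copies.

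Sult1e1, the estrogen sulfotransferase, was the only tested conjugation row with a positive fold change. It measured 334, 462 and 478 FPKM in TPN rats 1, 2 and 3, against 237, 304 and 305 FPKM in control rats 1, 2 and 3, with no overlap. The mean was 424 ± 79.1 FPKM in TPN and 282 ± 39.2 FPKM in control (SD, n = 3 each), 1.51-fold higher in TPN, with a log2 fold change of 0.58 ± 0.23 (SE) and adjusted p = 0.405 in limma. Its adjusted p ran from 0.0873 to 0.975 over the alternatives, and its fold change from 0.46 to 0.80. Sult2a2 and Sult1e1 therefore lay apart in opposite directions, a contrast picked with the values in view. Sult2a2 FPKM divided by Sult1e1 FPKM was 1.86, 1.16 and 1.63 in TPN rats 1, 2 and 3, against 11.4, 4.97 and 6.39 in control rats 1, 2 and 3. As a share of all SULT FPKM, Sult2a2 held 50.2%, 33.2% and 39.4% in TPN rats 1, 2 and 3, against 74.0%, 62.7% and 67.9% in control rats 1, 2 and 3. Sult1e1 held 27.0%, 28.5% and 24.1% in TPN rats 1, 2 and 3, against 6.47%, 12.6% and 10.6% in control rats 1, 2 and 3.

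**Figure D5:**
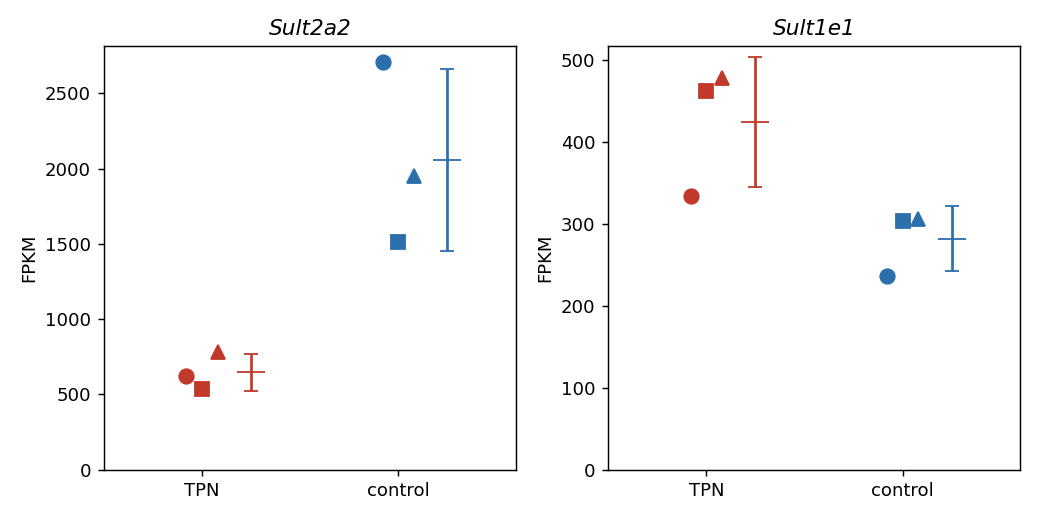
FPKM of Sult2a2 and Sult1e1 in each rat (circle, square and triangle for rats 1, 2 and 3), with the mean and SD of each group of 3 beside the points. Sult2a2 lies at 537 to 781 FPKM in TPN and 1510.5 to 2706 FPKM in control, and Sult1e1 at 334 to 478 FPKM in TPN and 237 to 305 FPKM in control.

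The other SULT1 rows overlapped between the groups. Sult1a1, a phenol sulfotransferase, measured 76.9, 174 and 339.7 FPKM in TPN rats 1, 2 and 3, against 216, 211 and 222 FPKM in control rats 1, 2 and 3, so the controls were tightly grouped and the TPN rats lay on both sides of them (log2 fold change -0.38 ± 0.49 SE; adjusted p = 0.824, limma). Sult1b1, which sulfates thyroid hormones and lies near Sult1e1 in RefSeq's GRCr8, measured 80.6, 187 and 207 FPKM in TPN rats 1, 2 and 3, against 273, 178 and 186 FPKM in control rats 1, 2 and 3 (log2 fold change -0.51 ± 0.38 SE; adjusted p = 0.664, limma). In Sult1b1 only TPN rat 1 was under every control, while in Sult1a1 TPN rats 1 and 2 were. Without TPN rat 1 the log2 fold change was -0.082 in Sult1b1 and 0.17 in Sult1a1. Sult1c3 measured 122, 229.8 and 137 FPKM in TPN rats 1, 2 and 3, against 188, 196 and 191 FPKM in control rats 1, 2 and 3 (log2 fold change -0.29 ± 0.26 SE; adjusted p = 0.732, limma). Its fold change was -0.11 without TPN rat 1 and -0.56 without TPN rat 2. Sult1c2a measured 1.69, 28.0 and 35.5 FPKM in TPN rats 1, 2 and 3, against 35.4, 9.96 and 18.3 FPKM in control rats 1, 2 and 3, with a log2 fold change of -0.48 ± 1.06 (SE) and adjusted p = 0.915 in limma, although its mean FPKM was 1.02 times the control mean. Its fold change turned to 0.72 without TPN rat 1. Sult1c2 measured 0.318, 1.47 and 1.46 FPKM in TPN rats 1, 2 and 3, against 1.52, 0.952 and 1.43 FPKM in control rats 1, 2 and 3 (limma adjusted p = 0.838). Sult1c2 was again low in TPN rat 1, without which the fold change was 0.11. The summed SULT1 rows were 615, 1082 and 1198 FPKM in TPN rats 1, 2 and 3, against 952, 899 and 924 FPKM in control rats 1, 2 and 3, so the lower SULT sum in TPN lay in Sult2a2.

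Cosubstrates for conjugation come from glutathione synthesis, UDP-glucuronate synthesis and the sulfate donor PAPS. Of 18 tested rows of this list 11 had negative fold changes, with a median of -0.047, and none passed limma's adjusted threshold. At an unadjusted limma p under 0.05 there were 1 lower and 1 higher, against 7.01% and 4.44% of all rows. Impad1 entered the list with more than 1 row. Ugp2, which makes UDP-glucose, measured 45.9, 104 and 79.7 FPKM in TPN liver and 136, 115 and 107 FPKM in control liver (limma adjusted p = 0.433), without overlap. Sat1 measured 45.9, 84.4 and 78.8 FPKM in TPN liver and 44.5, 45.9 and 38.0 FPKM in control liver (limma adjusted p = 0.393). It was the 1 higher row counted above. Sat1 is a polyamine acetyltransferase whose symbol is also an alias of a sulfate transporter, so it is no gene of cosubstrate supply. Papss2, which makes PAPS, measured 27.5, 23.4 and 27.1 FPKM in TPN liver and 35.1, 30.1 and 31.6 FPKM in control liver (limma adjusted p = 0.516), also without overlap. Gsr, the glutathione reductase, measured 15.0, 24.7 and 39.9 FPKM in TPN liver and 45.4, 29.1 and 41.0 FPKM in control liver (limma adjusted p = 0.559).

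Other conjugating and hydrolysing enzymes were negative in 12 of 18 tested rows, with a median of -0.41. None passed limma's adjusted threshold. At an unadjusted limma p under 0.05 there were 3 lower and 1 higher, where the shares over all rows were 7.01% and 4.44%. Ephx2, the soluble epoxide hydrolase, measured 1.35, 1.66 and 1.77 FPKM in TPN liver and 2.93, 16.8 and 15.0 FPKM in control liver (limma adjusted p = 0.288). Its groups did not overlap, although control rat 1 lay far under the other controls. Ephx1, the microsomal epoxide hydrolase, measured 42.5, 212 and 299 FPKM in TPN liver and 672, 315 and 572 FPKM in control liver (limma adjusted p = 0.424), likewise without overlap. Hpgds, a prostaglandin synthase of the sigma GST class, measured 8.1, 9.86 and 6.66 FPKM in TPN liver and 5.23, 7.02 and 4.93 FPKM in control liver (limma adjusted p = 0.428).

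Carriers in the list of conjugate transport were of both kinds, with 6 tested ABC pumps, which move substrates out of the cell, and 4 tested Slco carriers, which take them up. Of these 10 rows 9 were negative (median -0.57), 3 were lower at an unadjusted p under 0.05 (7.01% of all rows), 5 were lower without overlap (9.09% of all rows) and none passed limma's adjusted threshold. The 5 rows without overlap were the pumps Abcc2, Abcc3 and Abcc6 and the uptake carriers Slco1b2 and Slco2b1. Abcc3, which moves glucuronides to the blood, measured 0.855, 0.752 and 1.49 FPKM in TPN liver and 3.12, 3.75 and 3.04 FPKM in control liver (limma adjusted p = 0.0751). Slco1b2 measured 61.5, 103 and 83.9 FPKM in TPN liver and 314, 181 and 249.6 FPKM in control liver (limma adjusted p = 0.0882). Abcc2, which moves glucuronides and glutathione conjugates into bile, measured 45.1, 43.8 and 45.3 FPKM in TPN liver and 169, 85.1 and 98.0 FPKM in control liver (limma adjusted p = 0.137). Slco2b1 measured 21.0, 33.7 and 33.4 FPKM in TPN liver and 39.9, 38.5 and 39.3 FPKM in control liver (limma adjusted p = 0.485).

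Receptors and transcription factors that act on these genes were negative in 14 of 18 tested rows (median -0.21). None passed limma's adjusted threshold, and 1 had an unadjusted limma p under 0.05 (lower, against 7.01% of all rows). Esr1, the estrogen receptor, measured 1.65, 0.581 and 0.758 FPKM in TPN liver and 3.69, 2.99 and 2.7 FPKM in control liver (limma adjusted p = 0.137), without overlap and under 4 FPKM throughout. Nfe2l2, which encodes NRF2, measured 22.7, 25.5 and 30.4 FPKM in TPN liver and 46.9, 25.9 and 39.1 FPKM in control liver (limma adjusted p = 0.514). Foxa1, a hepatocyte factor, measured 10.3, 13.1 and 13.3 FPKM in TPN liver and 10.4, 8.55 and 8.35 FPKM in control liver (limma adjusted p = 0.438). The receptor genes Nr1i2 (PXR), Nr1i3 (CAR) and Ahr had limma adjusted p of 0.746, 0.964 and 0.533.

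NRF2 targets outside the conjugation rows had fold changes of both signs. Of 14 tested, 11 were negative (median -0.39) and none passed limma's adjusted threshold. At an unadjusted limma p under 0.05 there were 2 lower and 1 higher, against 7.01% and 4.44% of all rows. Ephx1, Gclc, Gclm and Abcc4 also belonged to lists above, so the counts of these lists share genes. Ephx1 was among the lower rows in its other list as well. Nqo1, a quinone reductase, measured 33.9, 48.2 and 47.1 FPKM in TPN liver and 10.6, 17.6 and 28.0 FPKM in control liver (limma adjusted p = 0.231), higher in TPN without overlap. Osgin1 measured 48.3, 32.5 and 52.6 FPKM in TPN liver and 182, 72.7 and 85.0 FPKM in control liver (limma adjusted p = 0.275), lower in TPN without overlap. Tkt, a transketolase, measured 32.2, 57.8 and 49.9 FPKM in TPN liver and 98.4, 49.6 and 82.5 FPKM in control liver (limma adjusted p = 0.456). A list of cytochrome P450 genes of drug and steroid metabolism was negative in 5 of 6 tested rows (median -0.90), with none passing limma's adjusted threshold. Its entries Cyp2b1, Cyp3a1, Cyp3a2, Cyp3a23/3a1 and Cyp2c6 matched no row by symbol. In this list 2 were lower at an unadjusted limma p under 0.05 (7.01% of all rows). Cyp2c7 measured 295, 322 and 65.4 FPKM in TPN liver and 2331, 1742 and 1099 FPKM in control liver (limma adjusted p = 0.157), without overlap. Cyp1a2 measured 90.8, 164 and 311 FPKM in TPN liver and 339.9, 449.6 and 466 FPKM in control liver (limma adjusted p = 0.324), also without overlap. This gene was also in the list of central-vein markers above. Cyp1a1 measured 0.408, 2.32 and 18.1 FPKM in TPN liver and 1.02, 5.67 and 6.54 FPKM in control liver, which overlapped (limma adjusted p = 0.988). The aryl hydrocarbon receptor acts on both Cyp1a genes. Cyp2b2 measured 51.4, 52.8 and 139.8 FPKM in TPN liver and 36.5, 492 and 88.7 FPKM in control liver (limma adjusted p = 0.845). Cyp2c11, which is typical of adult male liver, measured 20.3, 33.0 and 76.0 FPKM in TPN liver and 44.9, 116 and 102 FPKM in control liver (limma adjusted p = 0.503) and Cyp3a18 64.8, 159.8 and 224 FPKM in TPN liver and 117, 66.0 and 122 FPKM in control liver (limma adjusted p = 0.788).

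Markers of cells other than hepatocytes were read beside these results. Markers of cholangiocytes, the other main liver source of Gstp1, were negative in 4 of 4 tested genes and summed to 28.8 to 46.4 FPKM in TPN liver and 36.9 to 65.3 FPKM in control liver, with Krt7 among the markers listed at 0 in some rats. Most of each sum was Cdh1, at 33.4, 17.4 and 24.5 FPKM in TPN liver and 41.2, 21.2 and 31.3 FPKM in control liver. The list had 10 markers, and those not tested averaged under 1 FPKM. Kupffer cell markers were positive in 6 of 7 genes, with sums of 393 to 629 FPKM in TPN liver and 295 to 438 FPKM in control liver. Endothelial markers were negative in 3 of 5 genes, with sums of 57.4 to 73.4 FPKM in TPN liver and 47.6 to 77.4 FPKM in control liver. Stellate cell markers were negative in 5 of 7 genes, with 84.6 to 113 FPKM in TPN liver and 117 to 184 FPKM in control liver. Of 5 tested erythroid markers 4 passed limma's adjusted threshold, all lower (0.22% of all rows), and the list summed to 230.4 to 577 FPKM in TPN liver and 2124 to 2417 FPKM in control liver. T, NK and B cell markers had 1 tested gene, Gzma, with a negative fold change and limma adjusted p = 0.206, and summed to 3.51 to 6.22 FPKM in TPN liver and 5.22 to 8.46 FPKM in control liver. The hepatocyte list was negative in 4 of 7 genes and summed to 55312 to 75849 FPKM in TPN liver and 68903 to 84337 FPKM in control liver. Fgb, 1 of its genes with a positive fold change, was also in the acute-phase list. It measured 14753, 7532 and 6228 FPKM in TPN liver and 2944.5, 8189 and 3006 FPKM in control liver. The part of these cells in the conjugation values was not tested.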

How the data were processed

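Liver RNA-seq of 3 TPN and 3 control rats was used, grouped by title. Per the labels' protocols, TRIzol gave the RNA and standard Illumina preparation the libraries. The tools named per the submitters' processing notes were Bowtie 0.12.2 and Cufflinks, with the build Rnor_6.0; what each did is not given in the sources used here. What the authors deposited was FPKM per gene. Ratios of values under 0.3 FPKM between rats put at most 0.943% in 1 bin of 0.01 (log2), so steps of whole reads were not visible, the depth is unknown and no counting interval is given. Strandedness and the handling of shared reads are not stated.

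Rows with a mean of at least 1 FPKM were tested on log2(FPKM + 1) with limma 3.58.1 (statmod 1.5.0, R 4.3.3), moderated with trend and robust settings, with group as the only term, 2-sided, with Benjamini-Hochberg adjustment over 11362 rows. The same code was tested on simulated data. With 3 against 3 an exact rank test cannot go below 0.10. Lists of 192 entries matched 174 by symbol and 1 by an older symbol. Values by rat are given for the 6 most abundant rows and the 6 with the smallest p in each of GST, UGT and SULT, 23 in all, and for up to 4 genes with the smallest p in each list (a few of these are not reported here); Gstt3, Gstp1 and other genes beyond that were chosen after their values were seen. The members and lists were chosen with earlier results of these data known. Alternatives were other pseudocounts (0.1 and 0.01), filters (none, or 5 FPKM), scalings, moderation, sample weights, the replicate number as a block, summed symbols and each rat left out; an acute-phase covariate and the loss of TPN rat 1 with control rat 2 were added after seeing the data. Figures used matplotlib 3.10.9.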

Additional observations from a re-analysis of the deposited data

How the results depend on the processing

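Over all rows, 28 passed in the model as reported. The count was 18 and 5 with pseudocounts of 0.1 and 0.01, 0 without a filter on low values, 6 with a mean of at least 5 FPKM, 0 after median-ratio scaling or quantile normalisation, 8 without trend or robust settings, 299 with sample weights, 1 with the acute-phase covariate and 122 without TPN rat 1 and control rat 2. It ran from 0 to 46 when 1 rat was left out. Among the conjugation rows 0 passed in the model as reported, 2 with sample weights (Gstt1 and Sult2a2; 2.63% of all rows), 1 without TPN rat 1 and control rat 2 (Sult2a2; 1.07%) and 0 under the other alternatives, each rat left out included. With the replicate number as a block 58 rows passed (0.51%), and no conjugation row among them. Same-numbered rats had correlations of their deviations of -0.214, -0.143 and 0.321, and TPN rat 1 correlated most with control rat 2 (0.418). Deviations from a mean of 3 rats depend on each other, so these values cannot decide whether the numbers pair the rats.

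The median log2 fold change of UGT rows was 0.0069, and that of SULT rows 0.18, with the acute-phase covariate, while that of GST rows stayed negative throughout. Leaving out 1 rat gave -1.04 to -0.41 for GST, -0.79 to -0.12 for UGT and -0.76 to 0.11 for SULT. Of 435 values of the 23 named rows under alternatives, 19 had the other sign, in 11 rows. With the acute-phase covariate these were Gsta2 (0.099), Gstm2 (0.082), Sult1a1 (0.18), Sult1b1 (0.060), Sult1c2 (0.23), Sult1c2a (1.20), Ugt1a7c (0.0069), Ugt2a3 (0.46) and Ugt2b37 (0.091). Over the rats left out in turn the fold change ran from -0.90 to 0.17 in Sult1a1, -0.35 to 0.11 in Sult1c2, -1.16 to 0.72 in Sult1c2a, -0.59 to 0.12 in Ugt1a7c and -1.31 to 0.068 in Ugt2a3, and the positive value was always the one without TPN rat 1. Without TPN rat 1 and control rat 2 they were Sult1a1 (0.15), Sult1c2a (0.29), Ugt1a7c (0.22) and Ugt2b17 (0.069), and with sample weights Sult1c3 (0.052). The cause was not tested. With depth unknown, the counting error of the low rows cannot be given.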

Other observations

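Genes with related names that the symbol rule does not take in were read after the rest. Mgst1, a microsomal glutathione transferase of another protein family, measured 952, 1018 and 1240.1 FPKM in TPN liver and 1596, 1231 and 1522 FPKM in control liver (limma adjusted p = 0.532), and was above every GST row in each rat. Mgst2 measured 29.5, 51.3 and 87.0 FPKM in TPN liver and 85.3, 53.3 and 92.9 FPKM in control liver (limma adjusted p = 0.652). Mgst3 measured 5.51, 24.3 and 61.6 FPKM in TPN liver and 109.8, 49.0 and 79.7 FPKM in control liver (limma adjusted p = 0.473), with its lowest value in TPN rat 1, as in Gsta5 and Gstm1. The groups overlapped in all 3 genes. Ugt8, a ceramide galactosyltransferase of the UGT superfamily, was listed at 0 in all rats except control rat 2, at 0.024 FPKM.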
